A study of Mus musculus with 110 samples.

Results

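Ighv8-13-like_116090723, Ighv15-2 and Ighv1-9 are 3 variable (VH) gene segments near the middle of the VH region of the mouse immunoglobulin heavy chain (Igh) locus on chromosome 12. They were counted among 136 VH segments and 25 D segments. Junctions were taken as theirs when they lay within 100 bp of positions 116090723, 116193011 and 116212002 in the hybrid coordinates of the deposited files, and the segments are called by the names above. The 3 segments were chosen by their shares in earlier results on these libraries. Ighv8-13-like_116090723 and Ighv15-2 were selected on CTCF degron cells with auxin against untreated parental cells, and Ighv1-9 was selected on untreated CTCF degron cells against untreated parental cells. Values from those contrasts, and from CTCF degron IAA against CTCF degron untreated, which uses the same libraries, are therefore given as a description, with no test.

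Junctions between a JH4 bait, the most downstream joining segment of the locus, and prey sites were read by linear-amplification translocation sequencing (LAM-HTGTS). The 98 full libraries hold 3602400 junctions in 13 groups and 56 replicates, of which 312039 lay in the VH region. The title of the series names CTCF, cohesin and recombinational scanning, and the comparisons ask how use of these segments differed when CTCF or the cohesin subunit Rad21 could be degraded and in pro-B cells of bone marrow. All lines were v-Abl transformed pro-B cell lines, carried Emu-Bcl2 and were RAG2 deficient. They were nucleofected with RAG2 and treated with 3 µM STI-571, an Abl kinase inhibitor, for 4 days. The IAA groups also received 500 µM of the auxin indole-3-acetic acid (IAA), started 6 h earlier. The genotypes were the parental line (labelled WT on part of its libraries), an Ostir1 knock in line without a degron (OsTIR1 only), a line with CTCF-mAID-GFP tagging only (CTCF tag only), CTCFdegron, Rad21degron, and Rad21degron with IGCR1deleted. Each was given with and without IAA, and each treatment had 4, 4, 4, 6, 3 and 4 replicates in that order. The bone marrow group holds pro-B cells of 129SV mice of genotype Wild-type in 6 replicates. Of these, 5 are labelled as sorted B220+CD43+IgM-, replicate 1 has no sorting label, and the protocol field of replicates 4 to 6 repeats the STI-571 treatment of the lines. The labels name no separate cultures, clones or animals, so p-values measure only the spread between these samples, which may be technical. No RNA was measured, so the cell type labels could not be set against marker genes.

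An Igh variable region exon is assembled by the RAG recombinase, which first joins a D to a JH segment and then a VH to the DJH join. RAG cuts at a recombination signal next to each segment, made of a heptamer, a spacer and a nonamer. Chromatin that is extruded by cohesin moves past RAG bound at the JH end, and CTCF bound to DNA can halt that movement. IGCR1 is a control region with CTCF sites between the D and VH segments, and Ighv5-2 is the classic D-proximal VH whose own CTCF site lies beside its signal. IAA recruits a tagged protein to OsTIR1 and so triggers its degradation.

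The 3 segments stand 1260, 1360 and 1380 kb into the VH region from its D end, and they are the 69th, 76th and 77th of the 136 VH segments from that end. Their recombining ends are shown because every junction counted here is a join to one of them. Each is the minus strand of mm9 chromosome 12, read 5′ to 3′, with 39 coding bases and the spacer in lower case and the heptamer and nonamer in capitals. The 3 stretches lie at chr12:115700462-115700539, chr12:115802750-115802827 and chr12:115821742-115821818 in the order of the names:
Ighv8-13-like_116090723: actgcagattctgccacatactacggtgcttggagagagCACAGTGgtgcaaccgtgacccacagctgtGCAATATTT
Ighv15-2: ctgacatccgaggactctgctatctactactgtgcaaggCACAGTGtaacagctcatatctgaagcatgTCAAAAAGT
Ighv1-9: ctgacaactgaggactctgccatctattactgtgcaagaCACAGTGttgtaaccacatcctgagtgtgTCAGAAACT

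All 3 carried the heptamer CACAGTG at 7 of 7 bases, as did 100 of the 136 VH segments (73.5%). Their nonamers matched ACAAAAACC at 4, 6 and 6 of 9 bases in the order above, whereas 28.7% of VH segments matched at 8 bases or more. The spacer was 23 bases in Ighv8-13-like_116090723 and Ighv15-2, as in 51.5% of VH segments, and 22 bases in Ighv1-9. The motif CCANNAGNNGGC, the core of a CTCF site, was searched on both strands over the 200 bases past each signal, where it shares no stretch with the heptamer or nonamer. It was present at 46 of the 136 VH segments (33.8%). These were 46 of the 68 segments on the D side of the 3, none of the 3, none of the segments between them and none of the 59 on the far side. A match describes letters only, and no match says only that these letters are not in this window. All signals and motifs were read from the best mm9 match of each segment, not from the joins or the hybrid genome. Each signal was placed near the segment end where heptamer and nonamer together matched best, with extra weight on a CAC start. Spacers of 22, 23 and 24 bases were tried, so matches and spacer lengths are the best of a search. Some segments share an mm9 match, such as those at 114846142 and 115073093, so the counts over VH segments hold some stretches more than once.

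Ighv15-2 and Ighv1-9 matched their annotated mm9 genes, each on the minus strand, over 115802789-115803108 and 115821780-115822099, both at 98.1% identity. Ighv8-13-like_116090723 did not match Ighv8-13, which was counted as another segment at 117393770. Its prey sequence matched mm9 at 115700501-115700820 with 99.1% identity. The GENCODE M1 annotation holds no gene of an immunoglobulin type there, and other gene types were not searched. Its name is kept as a working label with its position and stands for no likeness to Ighv8-13. The reading frame up to the conserved cysteine codon, the last anchor of a V domain before the third hypervariable loop, held 0 stop codons over 91 codons in all 3. Positions below are counted from 1 at the coding base next to the heptamer, away from it and on the gene strand, with the mm9 base first and the read base last. Reads at Ighv8-13-like_116090723 differed from mm9 by G15T, in 99.7% of 1604 bone marrow reads and 99.4% of 1034 reads of the lines, which makes the mm9 codon GGT the cysteine codon TGT. Ighv15-2 differed by C31T alone, in 99.3% of bone marrow reads and 99.7% of reads of the lines. Ighv1-9 differed by A18G and A33T. The same bases were read in bone marrow and in the lines.

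The 3 segments held 8367 junctions, 0.232% of all junctions and 2.68% of VH junctions. Ighv8-13-like_116090723 had 2742 junctions, Ighv15-2 had 3151 and Ighv1-9 had 2474. Most lay at the segment ends: 98%, 97.2% and 96.7% of them were within 10 bp of the given position. Between 26 and 100 bp there were 9, 11 and 2 junctions, and from 101 to 200 bp, just outside the limit, there were none. Joins in minus orientation were 1.46%, 1.17% and 0.364% of the total, against 0.959% over all VH segments. Replicate totals ran from 14866 to 231023 junctions in the parental, OsTIR1 only, CTCF tag only, CTCF degron and bone marrow groups. They were 1263 to 2492 in Rad21 degron IAA and 1608 to 2668 in its IGCR1-deleted counterpart. VH junctions made up 27.5% ± 2.78 (SD, n = 6) of all junctions in CTCF degron IAA, 4.05% ± 1.36 (n = 6) in CTCF degron untreated and 30.8% ± 5.99 (n = 6) in bone marrow. A share counts joins, so fewer recombining cells and fewer joins per cell cannot be told apart.

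At Ighv15-2, replicate 1 was the lowest in all 4 CTCF degron and CTCF tag only groups, and results that rest on it are given with and without it. Of VH junctions in CTCF degron IAA, Ighv15-2 took 0.185% in replicate 1 and 1.72% to 2.2% in the other 5 replicates. In CTCF tag only untreated it had no junction in replicate 1 and 0.407% to 0.817% of VH junctions in the others. The segments around it moved the same way. The 21 other VH segments within 150 kb of the 3 together took 5.33% of VH junctions in replicate 1 of CTCF degron IAA and 12.4% to 13.8% in the others. For CTCF tag only untreated the values were 1.55% and 4.92% to 7.73%. The cause was not tested.

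**Figure D1:**
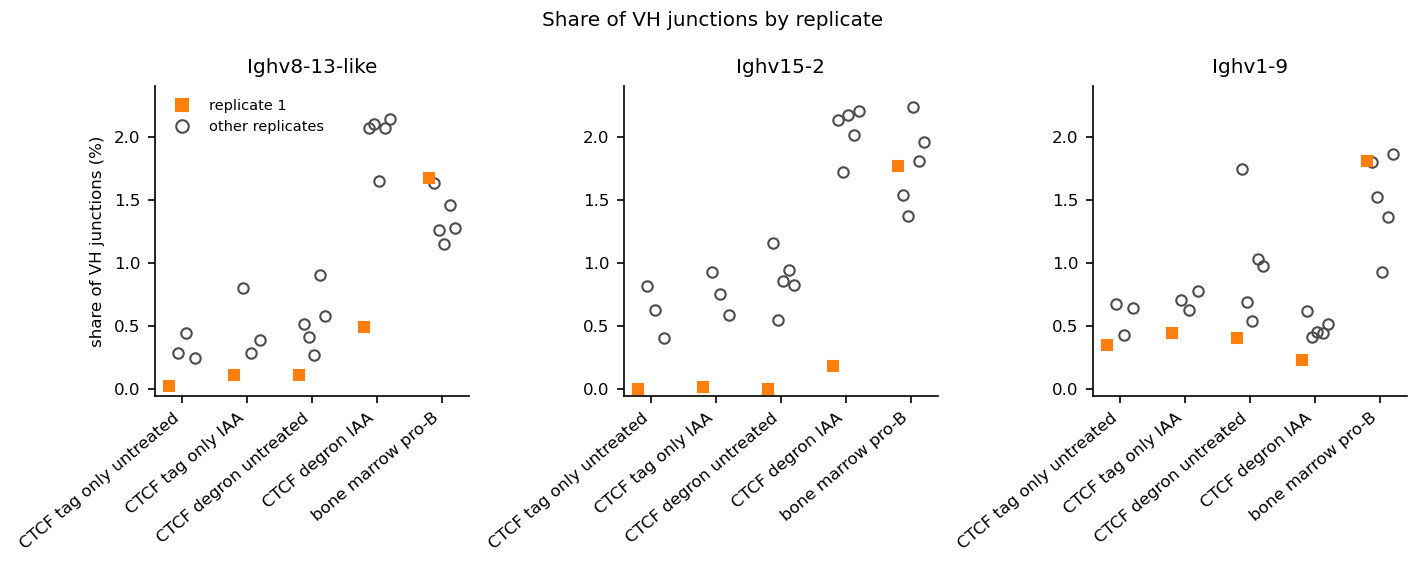
Share of VH junctions (%, linear axis) at the 3 segments in each replicate of the CTCF tag only, CTCF degron and bone marrow groups, with replicate 1 as a filled square and the others as open circles. At Ighv15-2 replicate 1 lies at or near 0 in the 3 other line groups and at 0.185% in CTCF degron IAA, below every other replicate, while bone marrow replicate 1 (1.77%) lies within its group.

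Across the 13 groups, all 3 segments were used most in bone marrow pro-B cells and in CTCF degron cells with IAA. Ighv8-13-like_116090723 and Ighv15-2 had overlapping shares in both groups, with means of 0.439% to 0.545% of all junctions, while Ighv1-9 was lower in CTCF degron IAA than in every bone marrow replicate. In the other groups the highest replicate had 0.0402% at Ighv8-13-like_116090723 and 0.0461% at Ighv15-2. At Ighv1-9 it had 0.0691%, apart from 1 replicate of the IGCR1-deleted line at 0.435%.

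Ighv8-13-like_116090723 took 0.149%, 0.492%, 0.626%, 0.405%, 0.572% and 0.623% of all junctions in CTCF degron IAA, in order of replicate number (0.478% ± 0.182, n = 6). In bone marrow it took 0.605%, 0.566%, 0.374%, 0.294%, 0.326% and 0.469% (0.439% ± 0.128, n = 6). The 2 ranges overlap, and both lie above all other groups. CTCF degron untreated followed at 0.018% ± 0.0122 (n = 6, 0.00758% to 0.0402%), and its range did not meet that of bone marrow. Then came CTCF tag only IAA (0.0127% ± 0.00744, n = 4) and CTCF tag only untreated (0.00956% ± 0.00733, n = 4). From CTCF degron untreated downward each group's range overlapped that of the next. The parental groups had 6 junctions of 488632 untreated and 8 of 459142 with IAA, and the OsTIR1 only groups had 3 of 259025 untreated and 4 of 236388 with IAA.

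Ighv15-2 took 0.056%, 0.506%, 0.515%, 0.533%, 0.555% and 0.641% of all junctions in replicates 1 to 6 of CTCF degron IAA (0.468% ± 0.207, n = 6). The lowest value is replicate 1; without it the mean was 0.55% ± 0.0542 (n = 5). In bone marrow it took 0.639%, 0.533%, 0.408%, 0.57%, 0.402% and 0.719% in replicates 1 to 6 (0.545% ± 0.126, n = 6). The ranges of these groups overlap. The CTCF degron untreated replicates ran from no junction to 0.0461% (0.0266% ± 0.0172, n = 6), below every CTCF degron IAA replicate. CTCF tag only IAA and untreated gave 0.019% ± 0.0128 and 0.0169% ± 0.0123 (n = 4 each), and both overlapped CTCF degron untreated. The parental line had 6 junctions untreated and 14 with IAA, and OsTIR1 only had 7 untreated and 3 with IAA.

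Ighv1-9, of the large Ighv1 (J558) family, took 0.07%, 0.146%, 0.123%, 0.112%, 0.122% and 0.151% of all junctions in replicates 1 to 6 of CTCF degron IAA (0.121% ± 0.0291, n = 6). In bone marrow it took 0.652%, 0.624%, 0.452%, 0.237%, 0.302% and 0.683% (0.492% ± 0.191, n = 6). No bone marrow replicate was as low as any CTCF degron IAA replicate. CTCF degron untreated had 0.0265%, 0.0691%, 0.0182%, 0.0175%, 0.0456% and 0.034% (0.0352% ± 0.0197, n = 6), and the highest of these lay just under the lowest CTCF degron IAA value. The IGCR1-deleted line with IAA came between them by its mean (0.109% ± 0.218, n = 4), which rests on 1 replicate. Next came CTCF tag only IAA (0.0217% ± 0.00442, n = 4) and untreated (0.0191% ± 0.00481, n = 4), whose ranges overlap. Rad21 degron untreated (0.0105% ± 0.00834, n = 3) overlapped both CTCF tag only untreated and the parental groups, which had 22 junctions untreated and 16 with IAA. OsTIR1 only had 2 junctions untreated and 1 with IAA.

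None of the 3 had a junction in Rad21 degron IAA, where the smallest replicate total of 1263 allows a share of up to 0.238%, nor in the untreated IGCR1-deleted line, where 3 junctions would be 0.0196% to 0.0563% of a replicate. In that untreated line VH junctions were 50.7% ± 2.33 (n = 4) of the total and Ighv5-2 took 78.9% ± 0.767 of them. With IAA the IGCR1-deleted line had 7 junctions at Ighv1-9, all in replicate 3 and 2 of them distinct, and none in the other 3 replicates. Junctions of a library count as identical here and below when prey position, strand, prey end, bait end and gap length agree. Their sequences were not compared, so 1 join read to different prey ends can count as distinct. Floors and intervals here cover counting error only, since reads without molecular identifiers are not independent molecules.

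**Figure D2:**
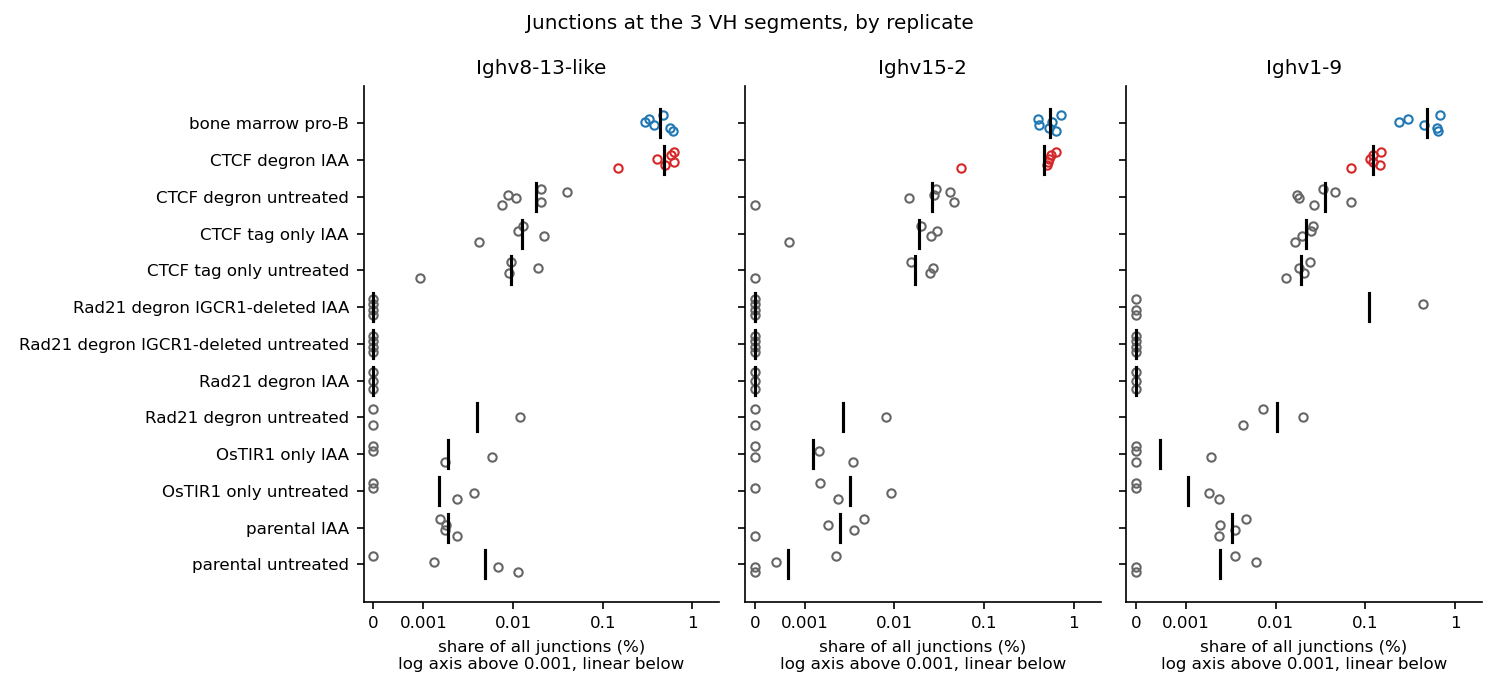
Share of all junctions (%) at each of the 3 segments in every replicate of the 13 groups, on an axis that is logarithmic above 0.001 and linear below; circles are replicates and black bars group means. Bone marrow (blue) and CTCF degron IAA (red) overlap at Ighv8-13-like_116090723 and Ighv15-2, and at Ighv1-9 all 6 CTCF degron IAA circles (0.07% to 0.151%) lie to the left of the 6 bone marrow circles (0.237% to 0.683%).

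With the libraries that chose the segments, the log2 difference of CTCF degron IAA over CTCF degron untreated from the limma fit was 4.69 (SE 0.427) at Ighv8-13-like_116090723, 4.11 (SE 0.504) at Ighv15-2 and 1.87 (SE 0.365) at Ighv1-9. The median over the 54 VH segments in that fit was 3.1, so the first 2 lay above and Ighv1-9 below the middle VH segment. Counted over summed junctions the ratios were 25.6, 16.7 and 3.47. When libraries were scaled by the median of segment ratios instead of by their totals, the VH median became 0.74 and the 3 values 2.29, 1.72 and -0.49, so the sign at Ighv1-9 turned. Over untreated parental cells, the contrast that chose the first 2, CTCF degron IAA differed by 7.82 (SE 0.852), 7.7 (SE 1.02) and 4.83 (SE 0.457), against a VH median of 5.47. These 2 contrasts share the CTCF degron IAA libraries. Untreated CTCF degron over untreated parental cells, the contrast that chose Ighv1-9, was 3.05 (SE 0.513) at Ighv1-9, with a median of 2.1 over 20 VH segments. The other 2 segments had too few junctions for that fit. CTCF degron and untreated parental libraries share no sequencing run, so line and run cannot be told apart in the contrasts between them.

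To set apart which VH was used from how many VH joins were made, each segment was taken as a share of VH junctions. Ighv8-13-like_116090723 had 1.76% ± 0.643 in CTCF degron IAA and 1.41% ± 0.215 in bone marrow, a ratio of 1.25. Ighv15-2 had 1.74% ± 0.78 and 1.78% ± 0.301, a ratio of 0.977. Ighv1-9 had 0.446% ± 0.128 and 1.55% ± 0.361, a ratio of 0.289 (n = 6 throughout). The ratio was taken at 131 VH segments with bone marrow junctions whose mean junctions per replicate, added over both groups, reached 10. Their median ratio was 0.363 and 28 were above 1. Replicates of CTCF degron IAA lay all below those of bone marrow at 72 of the 131 (55.0%), Ighv1-9 among them, and all above at 15 (11.5%), none of which is 1 of the 3. Without replicate 1, CTCF degron IAA had 2.01% ± 0.2, 2.05% ± 0.196 and 0.489% ± 0.0808 (n = 5). Both groups ranked the 3 among the more used VH segments: 20th, 8th and 17th of 136 in bone marrow, and 13th, 14th and 31st in CTCF degron IAA. These ranks describe group means and carry no test. The CTCF degron IAA libraries also chose Ighv8-13-like_116090723 and Ighv15-2, so the ratios and ranks of these segments are partly set by the choice.

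Closely spaced segments differed widely. Ighv15-2 and Ighv1-9 are 19 kb apart, and their ratios of CTCF degron IAA to bone marrow were 0.977 and 0.289. Ighv15-2 was chosen on the CTCF degron IAA libraries and Ighv1-9 was not, so part of this contrast may come from the choice. On the D side of Ighv8-13-like_116090723, the segment at 116081018 had a ratio of 0.185, and Ighv1-2 on its far side had 0.412. Ighv10-3, the next segment with at least 100 junctions on the D side of Ighv15-2, had 0.119, and the segment at 116240676, next beyond Ighv1-9, had 5.3 with 8.27% ± 2.2 against 1.56% ± 0.358. Of the 20 other segments within 150 kb that could be compared, that one alone was above 1, and the median was 0.221, below the 0.363 of all VH segments. The lowest was 0.0191.

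**Figure D3:**
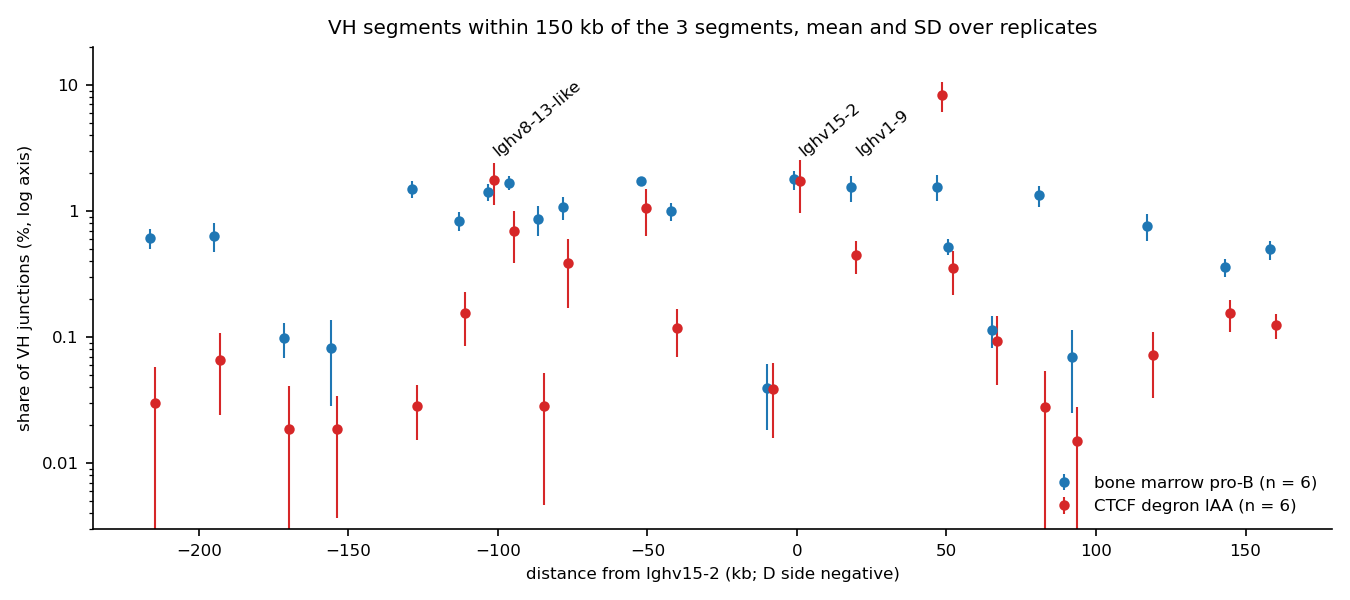
Share of VH junctions (%, log axis) of the 3 segments and the 20 others within 150 kb that could be compared, against distance from Ighv15-2 in kb with the D side negative, as mean and SD over 6 replicates of bone marrow (blue) and CTCF degron IAA (red, drawn slightly to the right). Lower bars end at the axis where the SD reaches it. Ighv8-13-like_116090723 and Ighv15-2 have both groups at like heights, Ighv1-9 has red below blue, and the segment at 116240676 has red above blue (8.27% against 1.56%).

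By Pearson correlation of log2(share of all junctions in percent + 0.001) over the 13 group means, with 124 candidate VH segments, Ighv8-13-like_116090723 was most like Ighv1-5 (r = 0.994), Ighv14-2 (0.988) and the segment at 116433049 (0.987). Ighv15-2 was most like segments at 115676764 (0.989), 115739254 (0.986) and 116652452 (0.985). Ighv1-9 was most like Ighv1-34 (0.958), Ighv1-55 (0.951) and Ighv1-26 (0.943). Among the 3, Ighv8-13-like_116090723 and Ighv15-2 had r = 0.977, and Ighv1-9 had 0.751 and 0.764 with them. The values of Ighv1-9 rest on 1 group, the IGCR1-deleted line with IAA, whose mean comes from 7 junctions in 1 replicate. Without that group, a step added after seeing the data, the pairs over 12 group means had r = 0.974, 0.949 and 0.957 in the same order. Ighv1-9 was then most like the segment at 115659508 (0.987), Ighv1-59 (0.981) and the segment at 117135978 (0.98). The closest segments of the other 2 stayed the same. The points share libraries and the depth of each group, so these values are descriptions.

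IAA itself was examined in lines where it has no complete degron to act on. In CTCF tag only cells limma called 0 of 73 segments between IAA and untreated (0.0% called, 4 at an unadjusted p under 0.05), and the 3 members had log2 differences of 0.41 (SE 0.793), 0.07 (SE 1.22) and 0.16 (SE 0.405), each with an adjusted p of 1. Same-numbered replicates of these groups deviated together, and with the replicate number as a block 13 segments were called, none of them the 3, at 0.42, 0.22 and 0.17 (adjusted p 0.539, 0.566 and 0.663). Without replicate 1 of both groups 4 segments were called, again without the 3. The direction at Ighv15-2 turned to -0.93 when the untreated replicate 1 alone was left out. In OsTIR1 only cells none of the 3 had enough junctions for the fit, which called 1 of 23 segments without the block and 13 with it.

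The CTCF tag without OsTIR1 was compared with OsTIR1 without the tag, both untreated, in libraries the choice did not use. Ighv1-9 took 0.013%, 0.0208%, 0.0182% and 0.0245% of all junctions with the tag, and 0.00237%, 0.00182%, 0 and 0 with OsTIR1 only. In the fit 17 of 49 segments were called higher with the tag (34.7%), and the median log2 difference over its 32 VH segments was 2.52. Ighv1-9, with 111 and 2 junctions, and Ighv15-2, with 101 and 7, reached the minimum of 10 junctions on average only through the tag group, where they are high, so their fitted values are given with no p. Ighv1-9 was at log2 3.79 (SE 0.847). Ighv15-2 was at 1.98 (SE 1.55), and at 3.11 without replicate 1 of CTCF tag only, which has no junction there. Ighv8-13-like_116090723 fell under the count minimum, with 58 junctions of 563564 against 3 of 259025, a ratio of 8.89 (95% exact interval 2.89 to 44.3). The 2 lines share no sequencing run, so line and run cannot be told apart.

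Bone marrow was compared with control lines that the choice did not use. The bone marrow libraries are shared by all of these comparisons and lie in runs of their own, so cell source and run cannot be told apart. Against CTCF tag only untreated, all 3 were higher in bone marrow, by log2 5.92 (SE 0.562, adjusted p 1.72e-09) at Ighv8-13-like_116090723, 5.89 (SE 0.689, adjusted p 3.98e-08) at Ighv15-2 and 4.65 (SE 0.471, adjusted p 4.65e-09) at Ighv1-9 by limma. Nearly every segment was: 137 of 140 were called higher (97.9%), with a VH median of 4.87. When the median of segment ratios set the scale, 69 segments passed as higher and 33 as lower, the VH median was 1.31, and the 3 were at 2.23, 2.14 and 1.15, still called. Without replicate 1 of CTCF tag only the log2 differences were 5.17, 4.61 and 4.49.

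OsTIR1 only untreated held 3, 7 and 2 junctions at the 3 segments, and parental IAA held 8, 14 and 16. The 3 therefore reached the count minimum in these fits only through bone marrow, where they are high, and the values are given with no p. Bone marrow over OsTIR1 only untreated was log2 8.1 (SE 0.538), 7.72 (SE 0.554) and 8.42 (SE 0.562), in a fit where 134 of 140 segments were called higher (95.7%). Bone marrow over parental IAA was 7.5 (SE 0.582), 7.6 (SE 0.569) and 6.98 (SE 0.623), in a fit where 135 of 140 were called higher (96.4%). When the median of segment ratios set the scale, that last fit had 106 higher and 25 lower. The pooled ratios of bone marrow to OsTIR1 only untreated were 396 (95% exact interval 135 to 1920), 202 (98.1 to 504) and 677 (187 to 5590).

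As a share of VH junctions the 3 were also higher in bone marrow than in CTCF tag only untreated. Ighv8-13-like_116090723 differed by log2 2.84 (SE 0.493, adjusted p 9.45e-05), Ighv15-2 by 2.82 (SE 0.715, adjusted p 0.00235) and Ighv1-9 by 1.62 (SE 0.362, adjusted p 0.000883). The median of the 121 VH segments was 1.81, and 75 were called higher (62.0%) and 10 lower. Ighv1-9 was thus below the middle VH segment and the other 2 above it. Without replicate 1 of CTCF tag only the values were 2.08, 1.57 and 1.43, all called. When the median of segment ratios set the scale, 50 passed as higher and 27 as lower, and Ighv1-9 lost its call (0.6, adjusted p 0.0751). Over OsTIR1 only untreated, where the 3 again reached the minimum only through bone marrow, the values were 5.44, 5.01 and 5.8, with no p given, in a fit with 111 of 121 called higher (91.7%). In these lines Ighv5-2 took 27.7% ± 8.53 (CTCF tag only) and 55.2% ± 5.99 (OsTIR1 only) of VH junctions (n = 4 each), against 11.4% ± 1.88 (n = 6) in bone marrow.

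The structure of the joins did not enter the choice of segments and was compared between CTCF degron IAA and bone marrow, which share no sequencing run, in plus orientation. A join was in frame when the cysteine codon of the VH and the tryptophan codon of JH4 were read in 1 frame. A heavy chain also needs no stop codon between them, so the in-frame shares below include joins with a stop. In frame without a stop, Ighv1-9 had 50.1% to 72.6% in bone marrow and 13.8% to 24.4% in CTCF degron IAA. Ighv15-2 had 31.4% to 50.6% and 23.2% to 30.5%, and Ighv8-13-like_116090723 15.6% to 33.1% and 21.9% to 32.7%. These were not tested. A minimum of 20 junctions in every replicate admitted Ighv8-13-like_116090723 alone of the 3, since replicate 1 of CTCF degron IAA had 12 and 15 at the others. A minimum of 10 admitted all 3 and is used below. Two-sided exact permutation tests over 6 against 6 replicates were adjusted by Benjamini-Hochberg over 162 tests of 41 VH segments.

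Ighv1-9 was mostly in frame in bone marrow and mostly out of frame in CTCF degron IAA. The bone marrow replicates had 66.3%, 63.0%, 67.7%, 77.9%, 74.4% and 63.5% of joins in frame (68.8% ± 6.06), and the CTCF degron IAA replicates 26.7%, 34.1%, 37.2%, 20.7%, 25.6% and 25.5% (28.3% ± 6.16). The groups do not overlap, and the difference was -40.5 percentage points (exact permutation p 0.00216, the smallest that 6 against 6 can give; adjusted p 0.014). In frame shares were called lower in CTCF degron IAA at 26 of 39 segments tested (66.7%), with a median difference of -22.2. The other CTCF groups, not tested, lay nearer CTCF degron IAA than bone marrow. With identical joins counted once, Ighv1-9 had 31% in frame in CTCF degron untreated, 37.4% in CTCF tag only untreated and 36.8% with IAA. All VH segments had 34.7%, 33.7% and 34.5% there, against 33.3% in CTCF degron IAA and 51% in bone marrow.

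Ighv15-2 differed less. Its bone marrow replicates had 42.2%, 38.8%, 48.5%, 45.9%, 47.9% and 56.7% in frame (46.7% ± 6.15), and CTCF degron IAA had 41.7%, 28.3%, 31.2%, 38.4%, 34.7% and 39% (35.5% ± 5.1). The ranges overlap slightly, and the difference of -11.1 points was called (exact permutation p 0.00649, adjusted p 0.0292). Ighv8-13-like_116090723 had 31%, 28.1%, 31.5%, 43%, 38.8% and 24% in bone marrow (32.7% ± 6.97) against 37.5%, 32.6%, 30.2%, 38.5%, 34.9% and 27.7% in CTCF degron IAA (33.6% ± 4.19). These overlap fully, and the difference of 0.808 points was not called (exact permutation p 0.823, adjusted p 0.952). Over all VH segments 50.7% ± 3.7 of bone marrow joins and 33.4% ± 0.513 of CTCF degron IAA joins were in frame.

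The 3 thus spanned nearly the whole bone marrow range. Of 71 VH segments with at least 20 junctions in every bone marrow replicate, Ighv1-9 had the 6th highest in-frame share, Ighv15-2 the 57th and Ighv8-13-like_116090723 the 67th. The median of the 71 was 60.1% and the range 28.3% to 73.2%, with 11 segments below 40%. Counting identical joins once left the order as it was: 66.6% of 1192 distinct joins at Ighv1-9 (95% exact interval 63.9 to 69.3), 45.9% of 1317 at Ighv15-2 (43.2 to 48.7) and 31% of 1120 at Ighv8-13-like_116090723 (28.3 to 33.8) in bone marrow. In CTCF degron IAA they were 28.6%, 34.7% and 31.7%. CTCF degron untreated, CTCF tag only untreated and CTCF tag only IAA had 33.8%, 26.2% and 31.5% at Ighv15-2. At Ighv8-13-like_116090723 they had 51.1%, 44.9% and 30.8%, on 47, 49 and 65 distinct joins. Distinct joins were 64.8%, 68.2% and 69.5% of the bone marrow junctions of Ighv1-9, Ighv15-2 and Ighv8-13-like_116090723, and 95.9%, 96.5% and 96.7% of those in CTCF degron IAA.

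**Figure D4:**
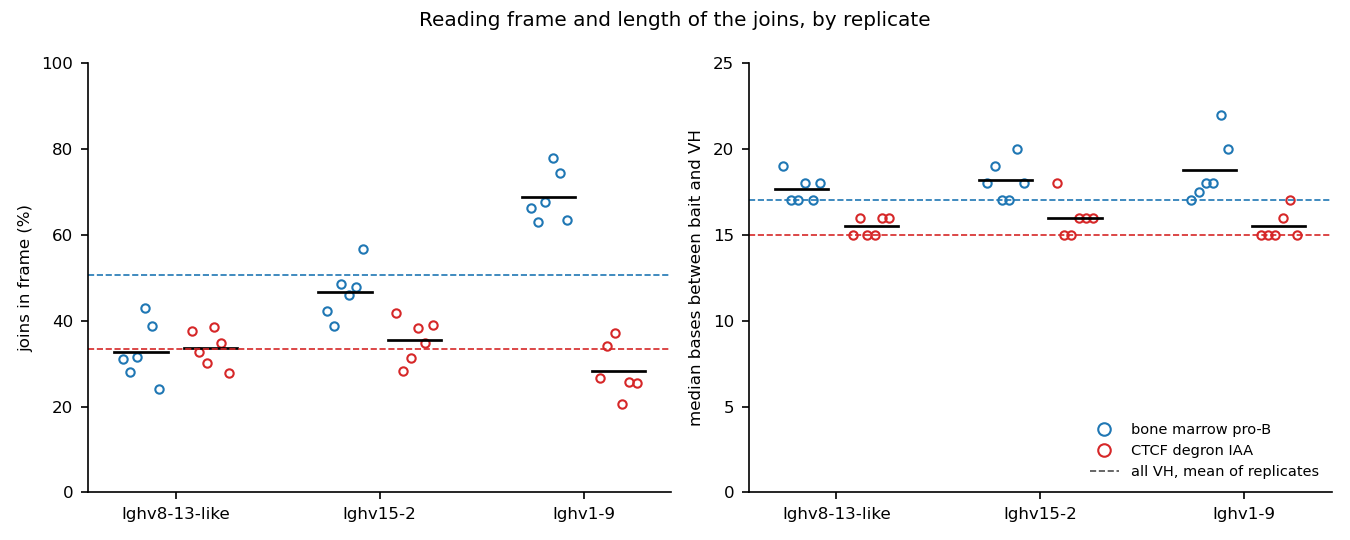
Left, percent of joins in frame, and right, median bases between bait and VH, for each of the 3 segments in the 6 replicates of bone marrow (blue) and CTCF degron IAA (red); black bars are group means and dashed lines the mean over all VH segments in each group. The in-frame shares of the groups coincide at Ighv8-13-like_116090723 (32.7% and 33.6%) and part at Ighv1-9 (68.8% and 28.3%), while the median insert is longer in bone marrow at all 3.

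Fewer bases lay between bait and VH in CTCF degron IAA. The replicate median was 15.5 bases against 17.7 at Ighv8-13-like_116090723 (difference -2.17, exact permutation p 0.00216, adjusted p 0.014) and 15.5 against 18.8 at Ighv1-9 (-3.25, p 0.00433, adjusted p 0.0234). At Ighv15-2 it was 16 against 18.2 (-2.17, exact permutation p 0.0173, adjusted p 0.0539), and without replicate 1 of CTCF degron IAA the difference was -2.57 (adjusted p 0.0353). Of the 41 segments 15 were called shorter (36.6%), with a median difference of -2.17, close to the values of the 3. Bases lost from the VH end did not pass at any of the 3, with median losses of 0 to 0.833 bases. Joins that had lost no VH base made up 74.3% ± 2.69 in bone marrow and 53.5% ± 13.9 in CTCF degron IAA at Ighv1-9, and 56.3% ± 1.34 and 44.5% ± 1.01 over all VH segments.

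A D segment stretch of at least 8 bases was found in 70.1%, 76.6% and 70.9% of bone marrow joins at Ighv8-13-like_116090723, Ighv15-2 and Ighv1-9, and in 66.9%, 72.2% and 68.6% of CTCF degron IAA joins. None of these differences passed the exact permutation test (adjusted p 0.508, 0.166 and 0.718). Ighd1-1 (DFL16.1), a D segment at the VH end of the D cluster, was matched in 28.6% ± 2.92 of CTCF degron IAA joins and 11.7% ± 3.11 of bone marrow joins at Ighv8-13-like_116090723. At Ighv15-2 the values were 33.6% ± 9.73 and 18.7% ± 6.95, and at Ighv1-9 30% ± 8.07 and 19.5% ± 9.43 (n = 6 each). All VH segments had 24.5% ± 3.39 and 14.0% ± 1.03, and these shares were not tested. In CTCF tag only untreated, every replicate with joins lay above all CTCF degron IAA replicates at each of the 3. It had 33.3% to 100%, 61.5% to 69.2% and 42.9% to 57.1% in the same order, on 1 to 41 joins per replicate. CTCF degron untreated had 28.6% to 60%, 25% to 59.1% and 14.3% to 55.6%, on 2 to 26 joins. CTCF tag only IAA had 0% to 68.8%, 0% to 48.8% and 25% to 53.6%, on 1 to 50 joins.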

How the data were processed

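The authors deposited 1 line per junction read, with the prey position, its strand, alignment bounds and the read sequence (unit: other; no deposited column of counts, percent or p-values was used). Per the submitters' processing notes reads were aligned with Bowtie2; per the labels the genome was a hybrid of mm9 with a separate Igh sequence, which was not used here, and versions are not given in the sources used here. Positions are 1-based hybrid positions; a and b libraries, shifted by -3 and 3 bases, were aligned to the bone marrow positions and summed. Segments (161 of 210 candidate peaks) were matched to mm9 with BLAST 2.17.0. Symbols come from GENCODE M1 and RefSeq. Tallies were tested with limma 3.58.1 (voom, pseudocount 0.5, mean of at least 10 junctions, Benjamini-Hochberg below 0.05) in R 4.3.3, scaled by each library's deposited junctions, or VH junctions for VH use. Structure used exact permutation tests that list every split of the replicates, checked against scipy 1.17.1. Both were tested on simulated data. Named segments are the 3, the 3 most alike to each by group means, the nearest on each side and Ighv5-2; the members and lists were chosen with earlier results of these data known. Same-numbered samples were paired by their deviations in CTCF tag only (correlations 0.5 to 0.85) and OsTIR1 only (0.66 to 0.87) but not in CTCF degron (-0.1 to 0.65). For 4 libraries with IAA in the title the treatment label names none; titles were followed. Off-target lists were left out. Alternatives covered counting, window, orientation, library letter, scaling, filters, limma-trend, blocks, runs and each replicate left out.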

Additional observations from a re-analysis of the deposited data

Results flagged for a closer look

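Of 56 sets of replicates tested with Dixon's ratio over groups of 4 or 6, 7 had 1 replicate far from the others. The sets take the same counts as shares of all and of VH junctions, so they are not independent. Where all other replicates had 0 junctions, as in the OsTIR1 only and IGCR1-deleted sets below, the ratio is fixed at its maximum. The number of flags is therefore not set against a chance rate. In CTCF degron IAA, replicate 1 had 0.056% of all junctions at Ighv15-2 (others 0.506% to 0.641%). As shares of VH junctions it had 0.185% there (others 1.72% to 2.2%) and 0.494% at Ighv8-13-like_116090723 (others 1.65% to 2.14%). In OsTIR1 only IAA, replicate 2 alone had a junction at Ighv1-9, 0.00192% of all and 0.0474% of VH junctions. In the IGCR1-deleted Rad21 degron line with IAA, replicate 3 alone had junctions at Ighv1-9, 0.435% of all and 6.03% of VH junctions. These were 7 junctions, 2 of them distinct. No cause was tested for any of these.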

How the results depend on the processing

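Under the alternatives, 152 counts of calls stayed within 1.5 times the count reported, 9 rose above it and 10 fell below it. OsTIR1 only IAA against untreated (1 call) gave 0 with identical junctions counted once and 0 with no filter, 13 with the replicate block, 11 with run as a factor and 0 to 2 leaving out a replicate. CTCF tag only IAA against untreated (0 calls) gave 13 with the block, and 4 without replicate 1 of both groups, an alternative added after seeing the data. CTCF tag only against OsTIR1 only (23 calls) gave 13 from b libraries only, 43 with a mean of at least 3 junctions, 47 with no filter and 13 to 35 leaving out a replicate (13 without OsTIR1 only replicate 3). Structure (32 calls at a minimum of 20 junctions) gave 51 at 10, 0 with the block, where 6 pairs cannot go below p 0.0312, and 23 to 39 leaving out a replicate. At the minimum of 10 with the replicate block, an alternative added after seeing the data, 0 of 162 tests were called, so the in-frame calls at Ighv15-2 and Ighv1-9 and the insert calls at Ighv8-13-like_116090723 and Ighv1-9 were lost (adjusted p 0.115 each, from p 0.0312, the smallest the pairs can give). This block paired CTCF degron IAA and bone marrow replicates by number alone, and the labels give no such pairing. In the limma fits the block changed no call of the 3. With the libraries that chose the segments, median-of-ratios scaling gave 2.29, 1.72 and -0.49 for CTCF degron IAA over untreated, and 6.27 (Ighv8-13-like_116090723) and 3.4 (Ighv1-9) over parental, where a libraries alone gave 4.05 at Ighv1-9. Shares moved for Ighv8-13-like_116090723 in parental IAA (0.00248% distinct, 0.00226% in a, 0.00147% in b) and Ighv1-9 in CTCF tag only untreated (0.0259% distinct). Between CTCF tag only IAA and untreated, where nothing was called, signs turned at Ighv15-2 (-0.01 distinct, -0.45 in a, -0.04 with median-of-ratios, -0.93 to 1.13 leaving out a replicate, with -0.3, -0.33 and -0.32 among them), at Ighv1-9 (-0.09 distinct) and at Ighv8-13-like_116090723 (-0.1 to 0.94 leaving out a replicate). The in-frame difference at Ighv8-13-like_116090723 ran from -0.938 to 2.85, with -0.173 and -0.116 among them. The cause was not tested. Run as a factor could not be fitted in the other 10 comparisons. Few junctions in the parental and OsTIR1 only lines limit every level there.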
